A study of Mus musculus with 22 samples.

Results

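The imprinted Dlk1-Dio3 region on mouse chromosome 12 encodes mmu-miR-370-3p, mmu-miR-494-3p, mmu-miR-770-3p and mmu-miR-487b-3p, the 4 mature microRNAs (miRNAs) described here. They were taken by name from the 1247 miRNA entries of the array, chosen by their measured differences between CsA and DMSO. The differences between CsA at 50 µM and DMSO, and those between both CsA doses together and DMSO, were known when these 4 names were chosen, so those differences are given as a description, with no test. Primary hepatocytes of the C57Bl6 mouse strain, labelled as biological replicates, had received cyclosporin A (CsA), an immunosuppressant that blocks calcineurin, or the solvent dimethyl sulfoxide (DMSO) alone. Total RNA was hybridised to 22 Agilent 1-colour miRNA arrays: 3 of CsA at 10 µM for 24 h, 2 of CsA at 50 µM for 24 h, 5 of DMSO for 24 h, 3 of CsA at 10 µM for 48 h, 3 of CsA at 50 µM for 48 h and 6 of DMSO for 48 h. The solvent concentration was 0.5% DMSO. By the labels, each experiment number has 2 DMSO arrays at 48 h. A concentration tag ties 1 of them to CsA at 50 µM and 1 to CsA at 10 µM. At 24 h, number 1 has 1 DMSO array and numbers 2 and 3 have 2 each. The n given below counts arrays. The main fit treats them as independent, so its SEs and p-values make no allowance for shared experiments. The series' design text counts 24 arrays, and the other 2 were not analysed here. The labels describe the cells as primary mouse hepatocytes, but their treatment text speaks of a hepatoma line. These are pools of cells in culture, so fewer cells of a type and less RNA per cell cannot be told apart.

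Every array carries a name in the deposited value table and a name under which its spot file was filed. Both names are the same for 6 arrays. Of the other 16, 8 CsA arrays bear the other dose and 8 DMSO arrays another replicate number, always at the same time point. Neither source states which naming is right. Groups below follow the value table, and the spot-file naming is set beside the results it moves.

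The Dlk1-Dio3 region is controlled by parental imprinting: Dlk1, Rtl1 and Dio3 are transcribed from the paternal chromosome, whereas the long non-coding RNAs Meg3, Rian and Mirg and a large group of miRNAs are transcribed from the maternal one. A miRNA guides Argonaute proteins to messenger RNAs mainly through its seed, the short stretch near its 5′ end, and lowers their translation and stability. The miRNAs of this region are known for expression in embryo, placenta and brain, and for low levels in adult liver.

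By the RefSeq annotation, Mir770 lies inside Meg3 and Mir370 inside Rian, whereas Mir494 and Mir487b lie in neither the Rian nor the Mirg span. All 4 hairpins lie between Dlk1 and Dio3, and the start of Mir370 is 54.6 kb, that of Mir494 152 kb and that of Mir487b 164 kb from the start of Mir770. RefSeq held a mature sequence for 3 of the 4 members on GRCm38.p6, all on the plus strand. They are shown because their seeds decide which messages they can pair with, and the seed (bases 2 to 8) is in capitals.
miR-370-3p: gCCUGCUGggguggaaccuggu
miR-494-3p: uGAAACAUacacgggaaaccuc
miR-770-3p: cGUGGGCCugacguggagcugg
These lie at chr12:109618305-109618326, chr12:109715367-109715388 and chr12:109563744-109563765, in that order. The opposite arms of the 4 hairpins, which the array also measured, are shown for comparison with the arms that gave signal.
miR-370-5p: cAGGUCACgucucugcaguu
miR-494-5p: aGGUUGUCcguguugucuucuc
miR-770-5p: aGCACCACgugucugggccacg
miR-487b-5p: uGGUUAUCccuguccucuucg
The seeds of miR-370-3p, miR-494-3p and miR-770-3p differ from each other, and 0 other mature mouse names in the RefSeq table share any of them. Guanine made up 45.5% of the bases of miR-370-3p, 18.2% of miR-494-3p and 50% of miR-770-3p, against a median of 26.9% over 1679 mature names.

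Levels are given as relative signal: the spots' background-corrected intensity as a percentage of the array's own 75th percentile, which was 188 to 605 intensity units. A value is called above background where at least 0.5 of the probe's spots carry the scanner software's flag for that. Between 201 and 400 entries were detected per array. The number of arrays limits the precision. The 4 hepatocyte miRNAs of the marker list were above background on all 22 arrays, summing to between 4395% and 6677%, while 0 of 3 leukocyte, 0 of 5 other epithelial and 0 of 2 erythroid markers were above background on any array. Of the endothelial markers 1 of 2 (miR-126-3p) and of the mesenchymal markers 1 of 5 (miR-145a-5p) were above background on some arrays. Between CsA at 50 µM for 48 h and DMSO for 48 h the mesenchymal sums were 7.10% to 11.5% against 3.30% to 13.3%, and the endothelial sums 9.02% to 11.6% against 6.76% to 16.8%.

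The 4 members spanned more than 2 orders of magnitude in relative signal. miR-494-3p was above background on 22 of 22 arrays and ranked 16th of 1247 entries by its mean of 485%. miR-370-3p was also above background on 22 of 22 arrays, at a mean of 22.4% and rank 115. miR-770-3p averaged 6.51%, at rank 205, and was above background on 13 of 22 arrays. miR-487b-3p averaged 3.59%, at rank 268, and was above background on 4 of 22 arrays. Different entries have different probes, so this order is one of signals, not of molecules. Together the members made up 1.55% to 2.01% of the summed signal in CsA at 50 µM for 48 h and 0.765% to 1.04% in DMSO for 48 h.

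**Figure D1:**
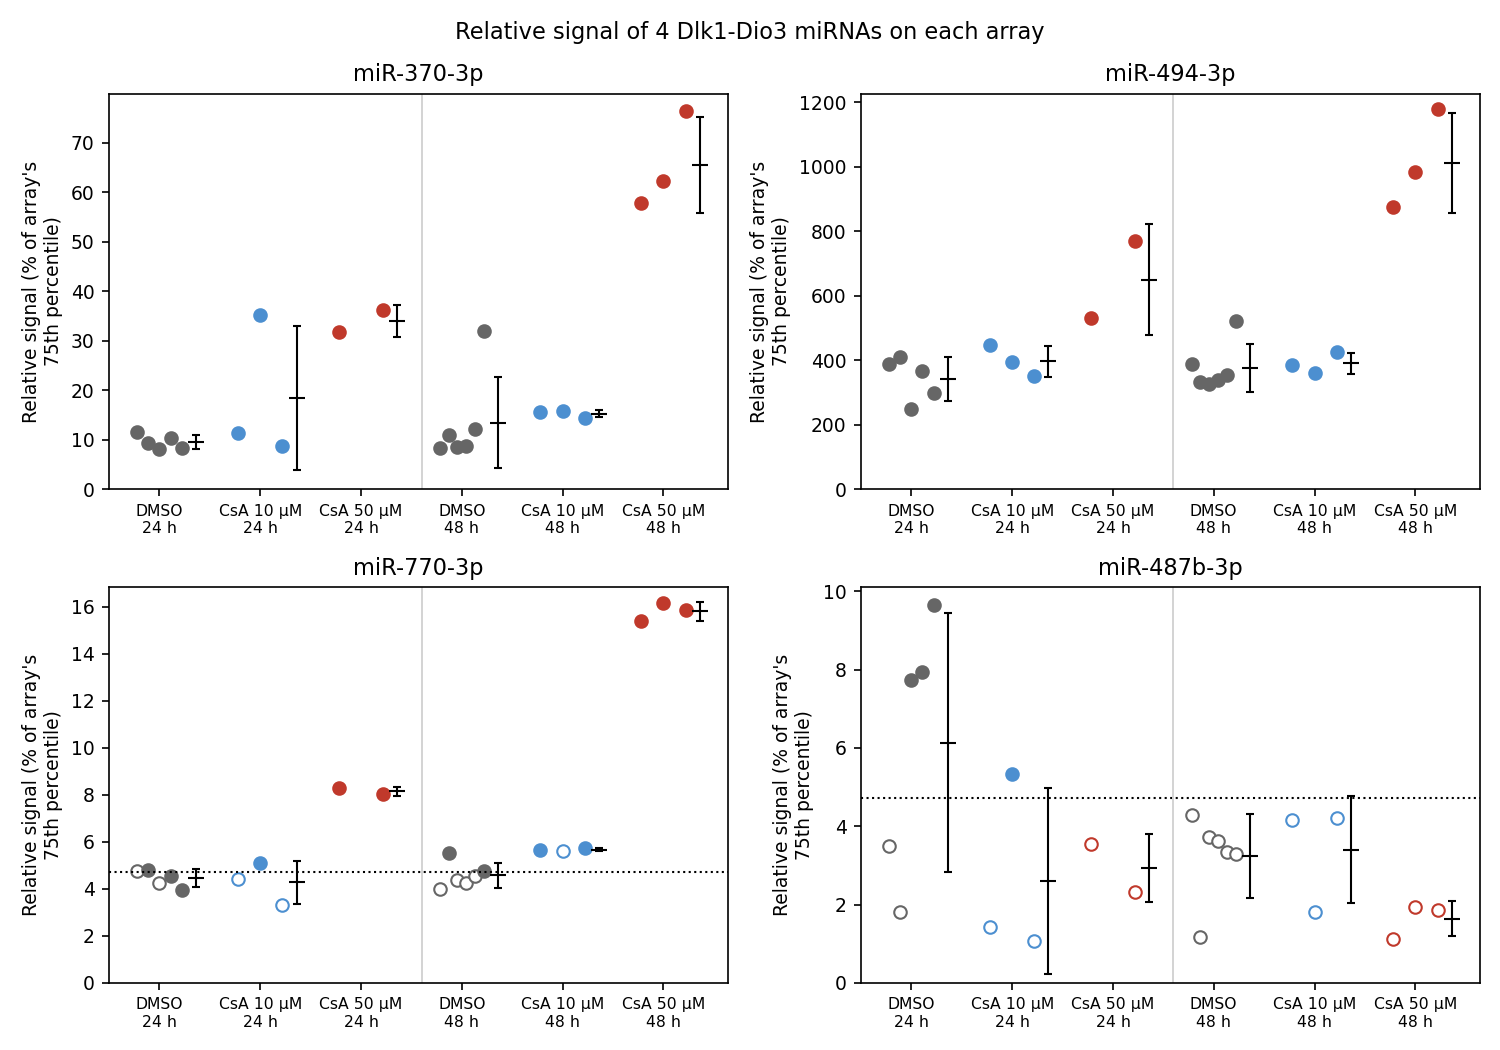
Relative signal of the 4 members on each array (percent of the array's 75th percentile, linear axis from 0), in 1 panel per miRNA. The x axis runs through DMSO, CsA 10 µM and CsA 50 µM at 24 h and then at 48 h, filled dots are above background and open dots are not, the black dash and bar are the mean ± SD, and the dotted line is the floor of 4.71%. In miR-370-3p, miR-494-3p and miR-770-3p all CsA 50 µM arrays lie above all DMSO arrays of their time, and miR-487b-3p has filled dots at 24 h alone.

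After 48 h at 50 µM CsA, miR-370-3p, miR-494-3p and miR-770-3p all stood above the whole range of the DMSO arrays, by 5.53-fold, 2.70-fold and 3.26-fold. In the same comparison 16.6% of the 290 tested entries lay above the DMSO arrays on every CsA array. By the spot-file names the folds were 2.01, 1.38 and 1.63, and miR-370-3p and miR-494-3p overlapped DMSO. These differences chose the members and are given without a test.

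miR-370-3p, which has been reported to repress CPT1A, the carnitine palmitoyltransferase of fatty acid oxidation, in human hepatoma cells, read 57.8%, 62.2% and 76.3% after 48 h of CsA at 50 µM. In DMSO for 48 h its lowest value was 8.28%, its median 9.86% and its highest 32.0%. Every CsA array was above every DMSO array, and 1 DMSO array, replicate 6, stood well apart from the other 5. The group means were 65.5% ± 9.68 in CsA and 13.4% ± 9.21 in DMSO (SD, n = 3 and 6), a log2 difference of 2.47 ± 0.39 (SE), and 2.76 without DMSO replicate 6.

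miR-494-3p read 874%, 982% and 1180.1% in CsA at 50 µM for 48 h. The DMSO arrays of that time ran between 325% and 522%, with a median of 346%. Again the groups did not overlap, and replicate 6 was the highest DMSO array. The means were 1012% ± 155 in CsA and 377% ± 74.8 in DMSO (SD, n = 3 and 6), a log2 difference of 1.44 ± 0.18 (SE).

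miR-770-3p, whose hairpin lies in the Meg3 transcript, read 15.4%, 16.2% and 15.8% in CsA at 50 µM for 48 h, all above background. The lowest DMSO value at 48 h was 3.98%, the median 4.45% and the highest 5.52%, and 2 of these 6 arrays (replicates 2 and 6) were above background. The CsA arrays lay close together and well above all DMSO arrays. Values under the floor of 4.71% were set to it before logarithms were taken, which gave a log2 difference of 1.70 ± 0.06 (SE). With 4 of 6 DMSO arrays not above background, this size depends on the floor, which also makes the SE too small. The second brightest probe gave 0.92, and normexp background correction with quantile normalisation gave 0.41.

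In the change over all 290 tested entries these 3 ranked 3rd, 16th and 9th from the top in the 48 h comparison at 50 µM, where the median entry differed by 0.13 on the log2 scale. All 3 CsA 50 µM arrays of 48 h were hybridised on the first of 3 slides, beside 1 DMSO array of that time. The array's 75th percentile was 334 to 605 intensity units on these CsA arrays and 252 to 355 on the DMSO arrays of 48 h, and 206 to 400 against 236 to 334 entries were detected. The part of these values in the differences was not tested. Within the first slide the log2 differences were 2.42 for miR-370-3p, 1.51 for miR-494-3p and 1.75 for miR-770-3p.

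At 24 h the same 3 miRNAs were above all DMSO arrays at 50 µM CsA, by 3.59-fold, 1.90-fold and 1.72-fold, as were 15.2% of the tested entries. By the spot-file names all 3 overlapped DMSO. No member lay below all DMSO arrays on both CsA arrays, as 2.41% of tested entries did. This group has 2 arrays, and these differences too were known when the members were chosen.

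For miR-370-3p the CsA arrays at 50 µM for 24 h read 31.8% and 36.2%, and the DMSO arrays of 24 h 11.5%, 9.39%, 8.23%, 10.3% and 8.24%. No DMSO array of 24 h came near the CsA values. The CsA array at 36.2%, replicate 3, had far higher negative control spots than the other arrays, as given below for miR-494-3p. The log2 difference was 1.84 ± 0.46 (SE, n = 2 and 5), and it was 2.04 within the second slide and 1.47 within the third.

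miR-494-3p read 529% and 771% in CsA at 50 µM for 24 h, against 388%, 411%, 248%, 367% and 298% in DMSO. In percent, the CsA arrays differed from each other by more than the whole DMSO range. On the log2 scale they did not, at 2.40 and 2.95 against 1.31 to 2.04 in DMSO. The log2 difference was 0.92 ± 0.21 (SE), with 1.14 within the second slide and 0.45 within the third. Leaving out CsA replicate 3 gave 0.65. On replicate 3 of this group the negative control spots gave 215, against 0.674 to 33.7 on the other 21 arrays. On that array the signals before scaling were 95.9 for miR-370-3p, 2043 for miR-494-3p and 21.2 for miR-770-3p. The part of the negative controls in the values of these 3 was not tested.

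miR-770-3p read 8.28% and 8.01% in CsA at 50 µM for 24 h, both above background. The 8.01% is from replicate 3, where the negative control spots, at 215, exceeded the miR-770-3p signal of 21.2. The DMSO arrays of 24 h gave 4.77%, 4.79%, 4.23%, 4.55% and 3.93%, with replicates 3, 5 and 6 above background. The groups did not overlap, and the DMSO values lay around the floor. The log2 difference was 0.78 ± 0.07 (SE), and it too depends on the floor. The second brightest probe gave 0.29, and the mean over the probes gave 0.

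**Figure D2:**
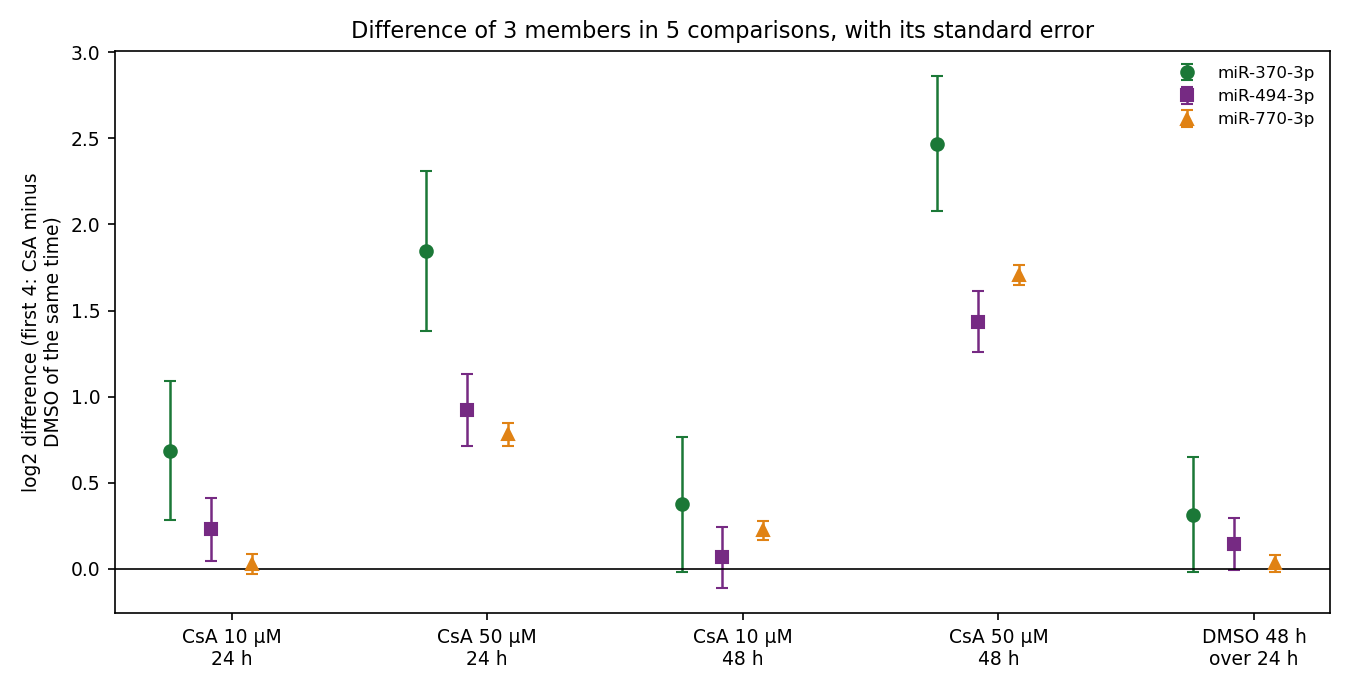
Log2 difference in relative signal for miR-370-3p, miR-494-3p and miR-770-3p (points, bars ± SE) in 5 comparisons: CsA 10 µM and 50 µM over DMSO at 24 h and at 48 h, and DMSO at 48 h over DMSO at 24 h. The points are highest for CsA 50 µM at 48 h, at 2.47, 1.44 and 1.70.

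At 10 µM CsA miR-370-3p, miR-494-3p and miR-770-3p did not pass the threshold against DMSO at either time. limma's moderated test with Benjamini-Hochberg adjustment over 290 entries called 0 of these 3, and 0% of all tested entries, at 24 h, where 16 entries had an unadjusted p under 0.05. At 48 h it called 0 of the 3 and 1.03% of all entries. The 10 µM and DMSO arrays are part of the pooled differences that were known when the members were chosen. Member p-values at 10 µM, and in DMSO over time, are therefore not independent of that choice.

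In CsA at 10 µM for 24 h miR-370-3p read 11.3%, 35.3% and 8.81%. Replicate 2 was as high as the 50 µM arrays and the other 2 lay within the DMSO range. The log2 difference was 0.69 ± 0.40 (SE, n = 3 and 5), with a 95% interval of -0.17 to 1.54 (adjusted p = 1 in limma), and without replicate 2 it was 0.08. At 48 h the 10 µM arrays gave 15.5%, 15.8% and 14.5%. These lay close together, above the DMSO median but below DMSO replicate 6. The log2 difference was 0.38 ± 0.39 (SE, adjusted p = 1 in limma), and 0.66 without DMSO replicate 6.

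miR-494-3p in CsA at 10 µM read 447%, 393% and 351% at 24 h and 385%, 362% and 424% at 48 h. Each set overlapped the DMSO arrays of its time. The log2 differences were 0.23 ± 0.18 at 24 h and 0.07 ± 0.18 at 48 h (SE, adjusted p = 1 in limma for each).

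miR-770-3p in CsA at 10 µM for 24 h read 4.42%, 5.11% and 3.31%, and replicate 2 was the array above background. The groups overlapped, and the log2 difference was 0.03 ± 0.06 (SE, adjusted p = 1 in limma). After 48 h at 10 µM it read 5.65%, 5.60% and 5.72%, with replicates 1 and 3 above background. All 3 lay just above the highest DMSO array, 5.52%, as was so for 2.07% of the tested entries. The log2 difference of 0.22 ± 0.06 (SE) missed the threshold, with adjusted p = 0.0722 in limma. It passed without DMSO replicate 2 of 48 h, at 0.26 (adjusted p = 0.00564), without replicate 1 of CsA at 50 µM for 48 h (adjusted p = 0.0460), and with no filter on dim entries (adjusted p = 0.0224). By the spot-file names it passed at 1.22 ± 0.31 (SE, adjusted p = 0.0382), but 2 of the 3 arrays so named are among those of 50 µM in the value table, which were in view when the members were chosen. In the deposited value table replicate 2 of this group stands at -1, the table's minimum, and the difference there is -0.90. The second brightest probe gave -0.016 at 48 h. Most DMSO arrays lay at the floor for miR-770-3p, 3 of 5 at 24 h and 4 of 6 at 48 h. The SE and adjusted p of these differences therefore depend on the floor, which makes SEs of 0.06 too small.

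In DMSO alone the first 3 members did not differ between 48 h and 24 h past the threshold. The log2 difference, 48 h minus 24 h, was 0.32 ± 0.34 for miR-370-3p (adjusted p = 0.789), 0.14 ± 0.15 for miR-494-3p (adjusted p = 0.789) and 0.03 ± 0.05 for miR-770-3p (adjusted p = 0.866; SE, n = 6 and 5, limma). Without replicate 6 of DMSO for 48 h the value for miR-370-3p was 0.03. For miR-770-3p 3 of 5 DMSO arrays at 24 h and 4 of 6 at 48 h lay at the floor, so its SE is too small. The test called 0 of these 3 and 0.345% of all entries, with 45 entries at an unadjusted p under 0.05. With the experiment number as a block it called 0 of the 3 and 10.3% of all entries.

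miR-487b-3p was above background on 4 arrays, all of 24 h. In CsA at 50 µM for 24 h it read 3.54% and 2.33%, in CsA at 10 µM 1.42%, 5.35% and 1.06%, and in DMSO 3.51%, 1.80%, 7.75%, 7.95% and 9.64%. The arrays above background were replicate 2 of CsA at 10 µM and replicates 4, 5 and 6 of DMSO. After 48 h, 0 of 12 arrays were above background, and no fold is given between those groups: CsA at 50 µM gave 1.12%, 1.95% and 1.85%, CsA at 10 µM 4.16%, 1.82% and 4.21%, and DMSO a lowest value of 1.18%, a median of 3.48% and a highest of 4.30%.

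No fold and no test are given for miR-487b-3p. It entered the tested entries mainly through DMSO for 24 h, which holds 3 of the 4 arrays above background, and it lay under the floor on the other 18 arrays. In the measured values each CsA group of 24 h, and DMSO for 48 h, overlapped DMSO for 24 h. Among the 24 h arrays, miR-487b-3p was above background on 3 of 3 arrays of the first slide, 1 of 5 of the second and 0 of 2 of the third. The part of the slide in these values was not tested.

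With both doses pooled, as the mean of the dose groups, the log2 differences between CsA and DMSO at 48 h were 1.42 ± 0.32 for miR-370-3p, 0.75 ± 0.14 for miR-494-3p and 0.96 for miR-770-3p. At 24 h they were 1.27 ± 0.35, 0.58 ± 0.16 and 0.41 for the same 3. At 48 h miR-770-3p was the member above all DMSO arrays on every CsA array, as were 1.03% of tested entries. That pooled fit called 19.3% of all entries, 14.8% higher and 4.48% lower, and 0 of the 5 other tested entries of the region. With the experiment number as a block it called 31% of all entries and 1 of these 5, miR-134-5p, at 0.37 ± 0.13 (SE, adjusted p = 0.0399 in limma). Without DMSO replicate 6 of 48 h it called 3 of the 5, and without replicate 1 of CsA at 50 µM for 48 h 1 of them.

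The difference between the doses turns on the naming. The spot-file names exchange CsA replicates 2 and 3 between the doses at both times, and keep replicate 1 where it is. By those names the log2 differences for CsA at 10 µM over DMSO at 48 h were 1.84 for miR-370-3p, 1.04 for miR-494-3p and 1.22 for miR-770-3p. For 50 µM at 48 h they were 1.01, 0.46 and 0.71. That naming called 6.55% of all entries for 10 µM at 48 h and 0.345% for 50 µM at 48 h. At 24 h the 10 µM differences were 1.32, 0.75 and 0.52 and the 50 µM differences 0.90, 0.14 and 0.05. Under either naming, the 3 arrays of CsA at 48 h with the highest miR-370-3p signal were the same as those with the highest miR-494-3p and miR-770-3p signals. These are the 50 µM arrays of the value table. Their differences from DMSO were known when the members were chosen, so this sharing is no separate result.

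Probes of the same miRNA were compared where the array holds several. Both probes of miR-370-3p gave the difference at 50 µM and 48 h, with log2 values of 2.64 and 2.47, as did both of miR-494-3p, with 1.54 and 1.44. The 4 probes of miR-770-3p were above background on 13, 7, 1 and 0 arrays. The 2 probes of miR-487b-3p were above background on 4 and 2 arrays. The opposite arms, miR-370-5p, miR-494-5p, miR-770-5p and miR-487b-5p, were above background on 0 of 22 arrays, so the 3p arm of each hairpin was the one with signal above background.

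In the authors' normalised log2 table, miR-370-3p ran between 3.91 and 7.55 over the 22 arrays, and miR-494-3p between 8.73 and 10.93. miR-770-3p ran between -1 and 4.01 there, and miR-487b-3p between -1 and 4.03. The table's zero point is set by its own floor, so a value of -1 stands for a signal at or under that floor.

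Most of the region's other miRNAs were not above background in these hepatocytes. The list of the region's miRNAs has 112 entries of 58 hairpins on the array, all between Dlk1 and Dio3 in RefSeq, and leaves out the miR-1247, miR-1906 and miR-882 hairpins, which RefSeq places there too. Of the 112, 98 were never above background and 5 were so on 1 or 2 arrays. The remaining 9, or 8.04%, were tested, whereas 23.3% of all entries on the array were. Just under the limit of 3 arrays lay miR-433-5p, miR-666-5p and miR-667-3p with 2 arrays each, and just above it miR-487b-3p with 4. Besides the members these 9 are miR-134-5p, known to repress Limk1 in rat neurons, miR-3072-5p, miR-432, miR-3070b-3p and miR-341-3p.

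At 50 µM CsA for 48 h, the main fit, which ignores the experiment number, called 2 of these 5 other entries higher and 0 lower. That fit called 37.9% of all tested entries, and 27.6% higher. miR-3072-5p averaged 39.8% ± 2.30 in CsA and 26.2% ± 10.5 in DMSO (SD, n = 3 and 6), a log2 difference of 0.68 ± 0.23 (SE, adjusted p = 0.0249 in limma). miR-3070b-3p passed the background limit on 2 of the 3 CsA arrays and 1 of the 6 in DMSO, and differed by 0.68 ± 0.23 (adjusted p = 0.0262). The values for the rest were 0.51 ± 0.29 for miR-134-5p, 0.78 ± 0.39 for miR-432 and 0.63 ± 0.27 for miR-341-3p, with adjusted p = 0.162, 0.122 and 0.0747. With the experiment number as a block all 5 passed, with adjusted p between 0.00827 and 0.0223, in a fit that called 53.4% of all entries. With the slide as a block, and by the spot-file names, 0 of the 5 passed. The same was so without CsA replicate 2 or without replicate 3, whereas 3 passed without CsA replicate 1, 1 without DMSO replicate 1 or without replicate 2, and all 5 without DMSO replicate 6.

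In CsA at 50 µM for 24 h and in CsA at 10 µM at both times, 0 of the 5 were called. By the spot-file names miR-3070b-3p was called at 10 µM for 48 h, at 0.78 ± 0.22 (SE, adjusted p = 0.0383 in limma), where 6.55% of all entries were called. By the value-table names the calls over all entries were 3.79% at 50 µM for 24 h. At 10 µM they were 0% for 24 h and 1.03% for 48 h. The median log2 difference of the 5 was 0.68 at 50 µM for 48 h and 0.41 at 50 µM for 24 h, where all tested entries had medians of 0.13 and 0.11. At 10 µM the medians of the 5 were -0.05 at 24 h and 0.23 at 48 h, beside 0 and 0.02 over all entries. The list was chosen with earlier results of these data known.

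**Figure D3:**
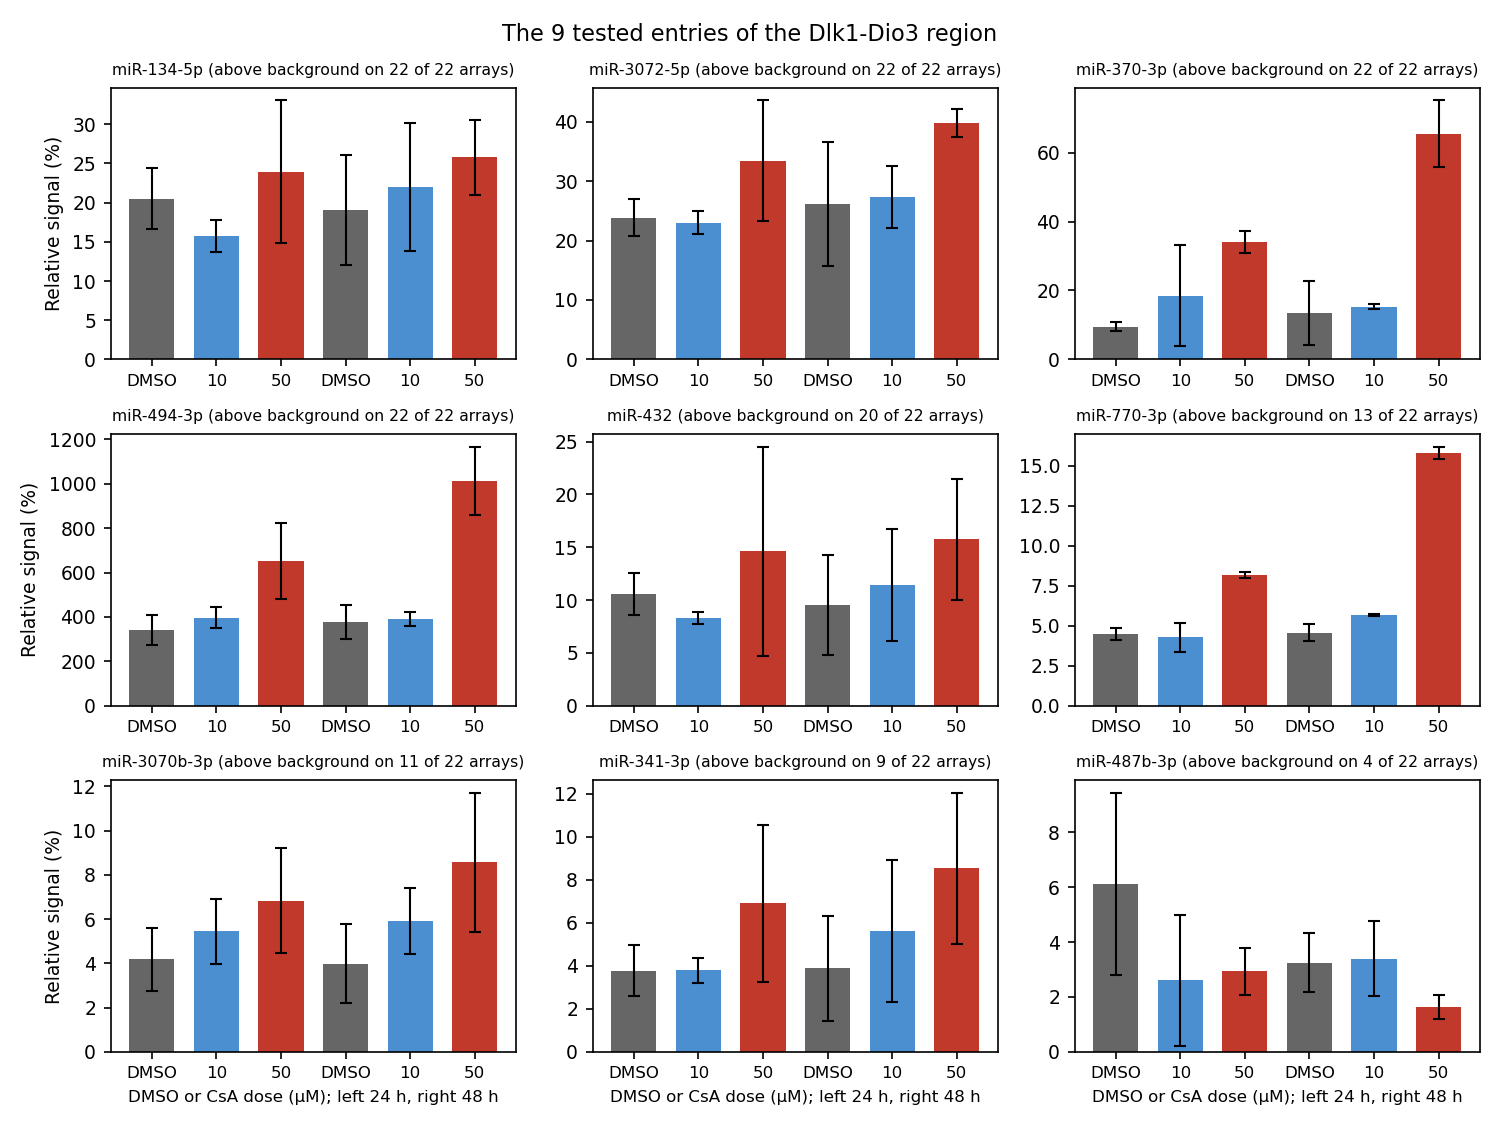
Mean relative signal (percent of the array's 75th percentile, bars ± SD) of the 9 tested entries of the Dlk1-Dio3 region in each of the 6 groups. miR-494-3p is the brightest entry in every group, and miR-370-3p at CsA 50 µM for 48 h averages 65.5%, against 13.4% in DMSO for 48 h.

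Correlations among miR-370-3p, miR-494-3p and miR-770-3p over all 22 arrays include the 50 µM differences by which these were chosen. High values there are no separate result. Pearson's r was 0.901 between miR-370-3p and miR-494-3p, 0.863 between miR-370-3p and miR-770-3p and 0.906 between miR-494-3p and miR-770-3p. Without the 5 arrays of CsA at 50 µM these values were 0.602, 0.376 and 0.137 over 17 arrays. miR-770-3p was at the floor on 9 of the 22 arrays, so its r values depend on the floor. No r is given for miR-487b-3p, which was under the floor on 18 arrays. The points share their arrays and the array's scaling, and the r values are a description.

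The arrays with the most miR-370-3p were the 5 of CsA at 50 µM, replicate 2 of CsA at 10 µM for 24 h and replicate 6 of DMSO for 48 h. The 2 single arrays were also the highest of their own groups for 145 and 141 of the 290 tested entries. The 145 comes from a group of 3 arrays. Other arrays in groups of that size had counts from 21 to 146, so it does not mark the array as unusual. The 141 comes from a group of 6, where the next count was 75.

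**Figure D4:**
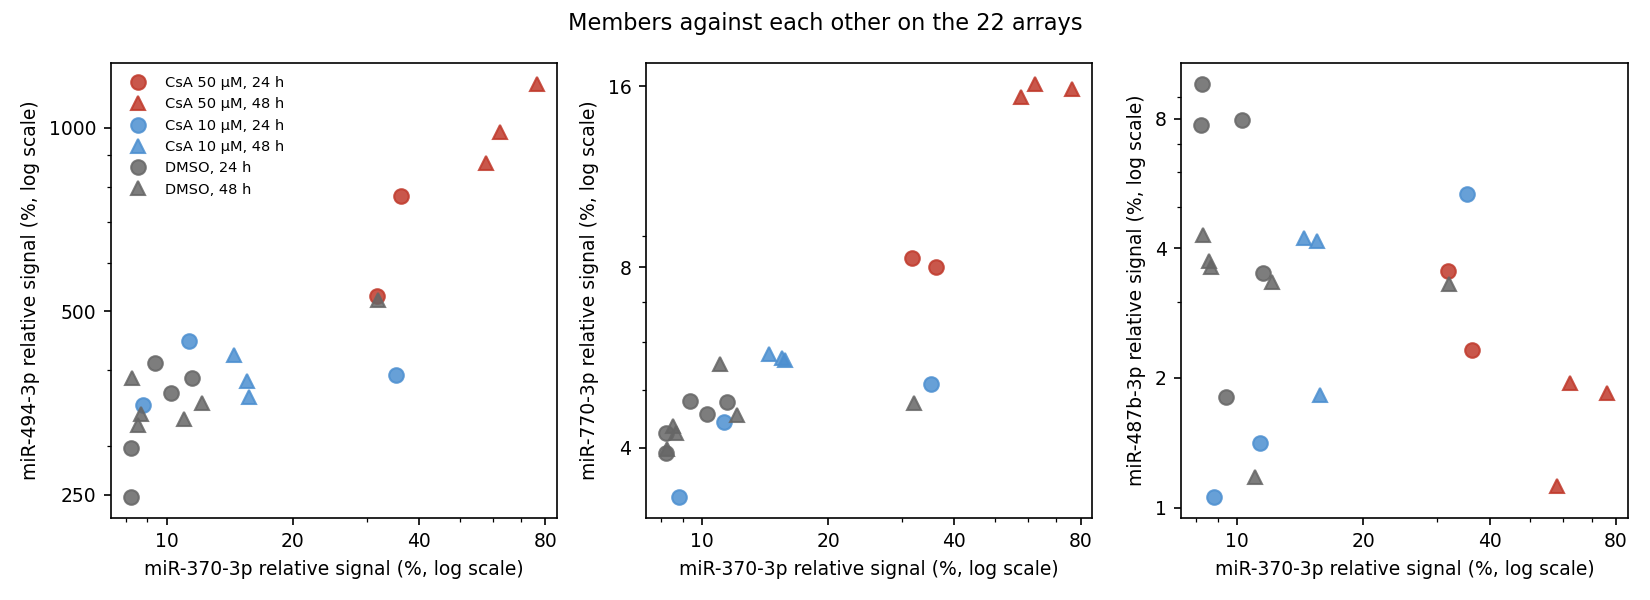
Relative signal of miR-370-3p (x axis) against that of miR-494-3p, miR-770-3p and miR-487b-3p (y axes), 1 point per array, both axes logarithmic, in percent of the array's 75th percentile. Circles are 24 h and triangles 48 h, coloured by treatment. The 3 triangles of CsA 50 µM lie at the upper right for miR-494-3p and miR-770-3p and at the lower right for miR-487b-3p.

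The tested entries whose log2 signal followed miR-370-3p most closely over the 22 arrays were miR-6243 (r = 0.966), miR-5105 (r = 0.964) and miR-5119 (r = 0.964). For miR-494-3p they were miR-6243 (r = 0.937), miR-5622-3p (r = 0.937) and miR-6391 (r = 0.919). For miR-770-3p they were miR-6378 (r = 0.948), miR-5116 (r = 0.936) and miR-1931 (r = 0.925). None of these 8 entries belongs to the Dlk1-Dio3 list, and the entries nearest to miR-370-3p were nearer to it than was any other member.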

How the data were processed

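Spot files hold intensity values that, per the file headers, the authors made with Agilent Feature Extraction 10.7.3.1, with background subtraction inside each array. The deposited value table holds log2 values. The submitters' processing notes name R 2.15.2, and total gene signals floored at 0.5, quantile normalised and logged gave the same table, so each column could be tied to 1 array. For each array, processed signals were averaged over a probe's spots without outlier flags, scaled to the 75th percentile of the 281 probes that were above background on all arrays, floored at 4.71% and logged. The brightest probe stood for an entry. Entries above background on at least 3 arrays (290) were fitted in 6 groups with limma 3.58.1 in R 4.3.3, with Benjamini-Hochberg adjustment over all 290 and a threshold of 0.05, and the code was tested on simulated data. Tables were handled with Python 3.11.15, pandas 2.3.3 and numpy 2.4.6. Named genes were the 4 members, the tested entries of the region and, for each member but miR-487b-3p, the 3 entries with the highest correlation.

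Experiment numbers come from the value-table labels. By these labels, same-numbered arrays count as paired. Their deviations had correlations of 0.11 to 0.78 between CsA and DMSO at 48 h, and of 0.20 to 0.44 in DMSO over time. At 24 h the correlations between CsA and DMSO were 0.58, 0.26, 0.46, 0.20 and -0.21. That 1 was negative cannot decide whether the 24 h arrays are paired, because their labels carry the same numbers. Correlations between differently numbered arrays are not given for comparison. The main fit ignores the pairing at both times, and the fit with the experiment number as a block is given beside it. The members and lists were chosen with earlier results of these data known.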

Additional observations from a re-analysis of the deposited data

Results flagged for a closer look

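In DMSO for 48 h, replicate 6 stood apart from the other 5 arrays as the highest for miR-370-3p, at 32.0%, with a gap to its neighbour of 0.718 of the group's range on the log2 scale. The same array was the highest for miR-494-3p, at 522%, with a gap of 0.627 of the range. For miR-487b-3p, replicate 2 of DMSO for 48 h was the lowest, at 1.18%, with a gap of 0.795, and no array of that group was above background. In all, 8 sets of values, each of 1 member in 1 group of arrays, were examined, and chance marks about 5% of sets. The marks for miR-370-3p and miR-494-3p fall on the same array, so they are not independent cases.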

How the results depend on the processing

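The spot-file naming had the largest effect: it left 0 called entries for CsA at 50 µM for 24 h, against 11, 1 for 50 µM at 48 h, against 110, and 19 for 10 µM at 48 h, against 3. The doses together then gave 0 entries at 24 h, against 6, and 3 at 48 h, against 56. The pooled CsA arrays are the same under both namings. For miR-370-3p at 48 h the pooled log2 difference was 1.42 under both. Its SE was 0.320 by the value-table names and 0.485 by the spot-file names. At 24 h, where the dose groups differ in size, the pooled difference was 1.27 and 1.11. A fit with both doses as 1 group, chosen after seeing the data, gave 0 and 3. The experiment number as a replicate block gave 17 entries for 50 µM at 24 h, 155 at 48 h, 11 and 90 for the pooled doses at 24 h and 48 h, and 30 for DMSO over time, against 1; it changed no call of miR-370-3p, miR-494-3p or miR-770-3p at 10 µM or over time in DMSO. Only DMSO arrays with the concentration tag of the CsA arrays in their labels gave 1 entry for 50 µM at 24 h and 1 for 10 µM at 24 h, where the count was 0.

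For 10 µM at 48 h the count was 0 with the percentile over all probes, quantile normalisation, normexp and the deposited value table. Those 4 settings, a filter of 11 arrays and the mean over probes gave 0 for DMSO over time. For the doses together at 24 h, quantile normalisation gave 10, normexp 12, the deposited values 2, the filter of 11 arrays 16 and the mean over probes 2. At 48 h that filter gave 35 and the slide block 36. Leaving out 1 array gave 1 to 22 entries for 50 µM at 24 h (1 without CsA replicate 3, 2 without replicate 2, 22 without DMSO replicate 6 of 48 h) and 72 to 173 at 48 h (173 without DMSO replicate 6). It gave 0 to 4 for 10 µM at 48 h, 1 to 18 and 34 to 115 for the doses together at 24 h and 48 h, and 0 to 8 for DMSO over time.

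The 50 µM differences chose the members, so their direction under other settings of the same arrays is no separate result. At 50 µM, miR-370-3p, miR-494-3p and miR-770-3p were not lower than DMSO under any setting run. Their log2 differences were 1.01 to 2.64, 0.46 to 1.58 and 0.41 to 1.70 at 48 h. At 24 h these were 0.77 to 1.94, 0.14 to 0.93 and 0 to 0.80. Leaving out 1 array gave 2.35 to 2.76, 1.32 to 1.54 and 1.69 to 1.74 at 48 h. Signs turned for small differences: miR-770-3p at 10 µM for 24 h gave -0.013 (percentile over all probes), -0.044 (quantile) and -0.0083 to 0.050 with 1 array left out (lowest without CsA replicate 2). At 48 h it gave -0.063 (percentile over all probes) and -0.90 (value table). miR-494-3p at 10 µM for 48 h gave -0.20 (percentile over all probes) and -0.073 (DMSO of the same tag), and miR-770-3p in DMSO over time -0.0059 to 0.040 with 1 array left out (lowest without DMSO replicate 2 of 48 h). The percentile over all probes moved the median entry at 50 µM and 48 h to -0.13, against 0.13. The cause was not tested. Signal near background limits miR-770-3p and miR-487b-3p.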
